A study of Mus musculus with 4 samples.

Results

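The SNARE and membrane fusion genes were followed in RNA sequencing of mouse bone marrow neutrophils, the short-lived phagocytes that carry their killing proteins in preformed granules. The set was chosen by gene symbol: the numbered syntaxins (Stx), syntaxin-binding proteins (Stxbp) and vesicle-associated membrane proteins (Vamp), Snap23, Snap25, Snap29, Snap47, Vti1a, Vti1b, Unc13d, Napa and Nsf. It held 38 of the 16566 genes in the deposited files, and 34 of them passed the filter on low counts. The cells came from C57BL/6 mice at a stated purity above 95% and were kept for 1 h in culture medium containing serum (20%). The ruxolitinib group (2 libraries) received ruxolitinib, which blocks the Janus kinases JAK1 and JAK2 that signal from cytokine receptors, for 1 h. The vehicle group (2 libraries) received the solvent of 80% glucose and 20% PEG300 for 1 h. The dose is uncertain: the treatment label gives 0.1 µM, the protocol 1 µM. Nothing in the labels states that the libraries of a group came from separate cultures or animals, so p-values measure only the spread between these libraries, which may be technical.

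SNARE proteins drive membrane fusion by zippering into a helical bundle that pulls a vesicle onto its target membrane. A VAMP on the vesicle pairs with a syntaxin and a SNAP-25-type protein on the target, Munc18 proteins (the Stxbp genes) clasp the forming complex, Munc13 proteins such as Munc13-4 (Unc13d) prime it, and α-SNAP (Napa) with the ATPase NSF takes spent complexes apart. In neutrophils this machinery releases granules at the plasma membrane and into phagosomes. Inherited loss of UNC13D, STX11 or STXBP2 in humans causes familial hemophagocytic lymphohistiocytosis, a disease of failed granule release in cytotoxic lymphocytes.

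No SNARE or fusion gene passed the test between ruxolitinib and vehicle. Of the 34 genes tested, 0 were higher and 0 lower at an adjusted p below 0.05 by edgeR's quasi-likelihood test, where 0% of all 11611 genes were called, the lowest adjusted value being 0.975. Before adjustment p was below 0.05 for 2 of the 34, Stx17 and Vamp1, both at lower levels with ruxolitinib, and for 1.94% of all genes. DESeq2 and limma-voom also called 0 of the set, and before adjustment 2 and 1 of these genes had p below 0.05. Libraries of the same treatment also differed: vehicle replicate 2 had 1.94 times the Unc13d RNA, 2.07 times the Vamp1 RNA and 0.504 times the Napa RNA of vehicle replicate 1. In bulk samples, fewer cells of a type and less RNA per cell cannot be told apart.

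The promoters of 31 of the 38 genes were in the RefSeq table of GRCm38.p6. Because ruxolitinib blocks the kinases upstream of STAT factors, the 250 bases before each listed start were searched on both strands for TTCNNNGAA, the palindromic core bound by STAT dimers, and for GAAA, any 2 bases, GAAA, a core of the interferon-stimulated response element. The first was found in 2 of 31 genes (6.45%), Stx17 and Vamp8, and in 7.33% of the 13035 genes of the files with a promoter in the table. The second was found in 1 of 31 (3.23%), Vamp1, and in 3.39% of those genes. Over all 32851 promoters of the table the shares were 7.02% and 2.98%, and each of the 3 windows shown held 1 match. The windows of these 3 genes are shown 5′ to 3′ with the match in capitals, since they include the genes with the smallest p-values, Stx17 and Vamp1. A match is a description of the letters and not a binding site.
Stx17 (chr4:48124669-48124918, + strand): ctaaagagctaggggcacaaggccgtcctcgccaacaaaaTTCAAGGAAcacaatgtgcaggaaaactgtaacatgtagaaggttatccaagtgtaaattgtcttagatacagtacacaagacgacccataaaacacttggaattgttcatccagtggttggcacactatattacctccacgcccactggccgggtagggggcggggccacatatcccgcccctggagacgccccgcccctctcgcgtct
Vamp1 (chr6:125215331-125215580, + strand): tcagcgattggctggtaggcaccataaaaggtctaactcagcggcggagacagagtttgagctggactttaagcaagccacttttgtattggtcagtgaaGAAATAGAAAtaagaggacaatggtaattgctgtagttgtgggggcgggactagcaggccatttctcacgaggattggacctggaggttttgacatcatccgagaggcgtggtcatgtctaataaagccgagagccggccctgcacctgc
Vamp8 (chr6:72390668-72390917, - strand): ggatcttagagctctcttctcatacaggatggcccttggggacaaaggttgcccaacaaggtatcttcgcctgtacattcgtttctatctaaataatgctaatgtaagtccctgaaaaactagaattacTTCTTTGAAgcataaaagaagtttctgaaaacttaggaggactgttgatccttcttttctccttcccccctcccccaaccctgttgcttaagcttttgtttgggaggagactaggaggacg

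The match began 210 bases before the listed start in Stx17, 150 in Vamp1 and 121 in Vamp8. The 3 genes did not share a pattern across libraries. Stx17 and Vamp1 were highest in vehicle replicate 2 and lowest in ruxolitinib replicate 2, whereas Vamp8 was highest in ruxolitinib replicate 2.

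The libraries held between 14235511 and 15419579 estimated counts, of which the set took 0.218% to 0.260%. Ruxolitinib replicate 1 and vehicle replicate 1 were much closer to each other than to the second replicates, with a common BCV (coefficient of variation left after counting noise) of 3.59%, against 18.03% between the ruxolitinib libraries and 31.9% between the vehicle libraries. The labels name no batch. All 12 neutrophil markers were detected, and together they summed, in CPM (counts relative to the TMM-scaled library size), to 84406 and 101017 CPM with ruxolitinib, against 83555 and 92761 CPM with vehicle. Both second replicates stood apart in markers. The 10 erythroid markers summed to 9194 and 23234 CPM with ruxolitinib, against 9296 and 8948 CPM with vehicle, and the 10 B lineage markers to 1231 and 2116 CPM with ruxolitinib, against 1266 and 1471 CPM with vehicle. The 17 eosinophil, basophil and mast cell markers summed to 3074 and 2009 CPM with ruxolitinib, against 3030.0 and 2662 CPM with vehicle. Hdc held most of that sum in every library but vehicle replicate 2, and without it (a choice made after its values were seen) the other 16 summed to 1176 and 417 CPM with ruxolitinib, against 1051 and 1625 CPM with vehicle. Vehicle replicate 2 was the highest library for 9 of these 17 markers (Prg2, Epx, Prg3, Siglecf, Il5ra, Ear1, Ear2, Ear6 and Fcer1a). It was the lowest for 3 (Mcpt8, Gata2 and Hdc). Ruxolitinib replicate 2 was the lowest for 11 and the highest for 2. The eosinophil ribonuclease gene Ear2 was at 87.7 and 37.8 CPM with ruxolitinib, against 79.3 and 172 CPM with vehicle. Mcpt8 was at 10.3 and 13.4 CPM with ruxolitinib, against 11.7 and 8.28 CPM with vehicle. Of the 12 neutrophil markers, 6 were highest in vehicle replicate 2, among them the receptor genes Cxcr2 and Csf3r. Cxcr2 was at 542 and 463 CPM with ruxolitinib, against 526 and 1036 CPM with vehicle. Csf3r was at 1758 and 1603 CPM with ruxolitinib, against 1715 and 2789 CPM with vehicle. Another 5 (S100a8, S100a9, Ly6g, Ngp and Camp) were highest in ruxolitinib replicate 2. Camp, for example, was at 3242 and 5067 CPM with ruxolitinib, against 3315 and 3138 CPM with vehicle. Summed monocyte and macrophage markers (14 of 14 in the files) ranged from 1090.1 to 1319 CPM with ruxolitinib and from 1102 to 1217 CPM with vehicle. Ly6c2 held most of that sum in every library. Without it (again a choice made after its values were seen) the sums were 360 and 326 CPM with ruxolitinib, against 333 and 435 CPM with vehicle. Of these 14 markers, 11 were highest in vehicle replicate 2 and 2 were lowest there. T and natural killer cell, platelet and dendritic markers summed to between 8.68 and 122 CPM in each library, and no marker held by the files was at 0 in every library. The part of these cells in the values below was not tested.

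By length-scaled level (TPM, as the authors deposited it), a few genes made up most of the set. The mean over the 4 libraries was above 100 TPM for 6 genes, from 10 to 100 TPM for 19, from 1 to 10 TPM for 6 and below 1 TPM for 7. Stx11, an atypical syntaxin without a membrane-spanning segment, led with 304 ± 78.3 TPM with ruxolitinib and 301 ± 98.8 TPM with vehicle (SD, n = 2 each). Snap23, the SNAP-25-type protein of non-neuronal cells, followed at 194 ± 52.2 TPM with ruxolitinib and 219 ± 22.7 TPM with vehicle. Stxbp2, which encodes Munc18-2, the partner of syntaxin 11, was at 171 ± 39.5 TPM with ruxolitinib and 226 ± 27.4 TPM with vehicle. Vamp8, a VAMP of granules and late endosomes, was at 199 ± 17.2 TPM with ruxolitinib and 195 ± 6.97 TPM with vehicle, and Napa at 136 ± 0.240 TPM with ruxolitinib and 101 ± 47.2 TPM with vehicle. These 5 genes held 56.6% of the summed TPM of the set. The median ratio of TPM to FPKM, another deposited level, was 1.46 in ruxolitinib replicate 2. In the other libraries it was 1.71 to 1.73, so TPM set out by treatment also carries a difference of scale. The ranges of Snap23, Stxbp2 and Vamp8 over the libraries overlapped, so their order is not resolved. Stx11 led by the mean, but in vehicle replicate 2 it was at 231 TPM, below Stxbp2 at 245 TPM. Vamp3 (101 ± 14.3 TPM over all 4 libraries, SD), which serves recycling endosomes, lay below the other VAMP of high level, Vamp8, in every library.

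Several genes were near or at the floor of detection, where 3 counts, the limit that a count of 0 allows, correspond to 0.191 to 0.221 CPM and cover counting error only. Snap25, the neuronal counterpart of Snap23, had 0 and 0 counts with ruxolitinib, against 1 and 0 counts with vehicle. Vamp9 had 0 and 1 counts with ruxolitinib, against 0 and 0 counts with vehicle. Stx19, an atypical syntaxin, had 1 and 5 counts with ruxolitinib, against 2 and 4 counts with vehicle. None of these was tested. Stx1a, a neuronal syntaxin, passed the filter at 1.13 and 1.76 CPM with ruxolitinib, against 0.762 and 1.24 CPM with vehicle. The summed level of the set was 1929 and 1504 TPM with ruxolitinib, against 1988 and 1811 TPM with vehicle, lowest in ruxolitinib replicate 2. In CPM the sums were 2489 and 2277 with ruxolitinib, against 2546 and 2369 with vehicle.

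**Figure D1:**
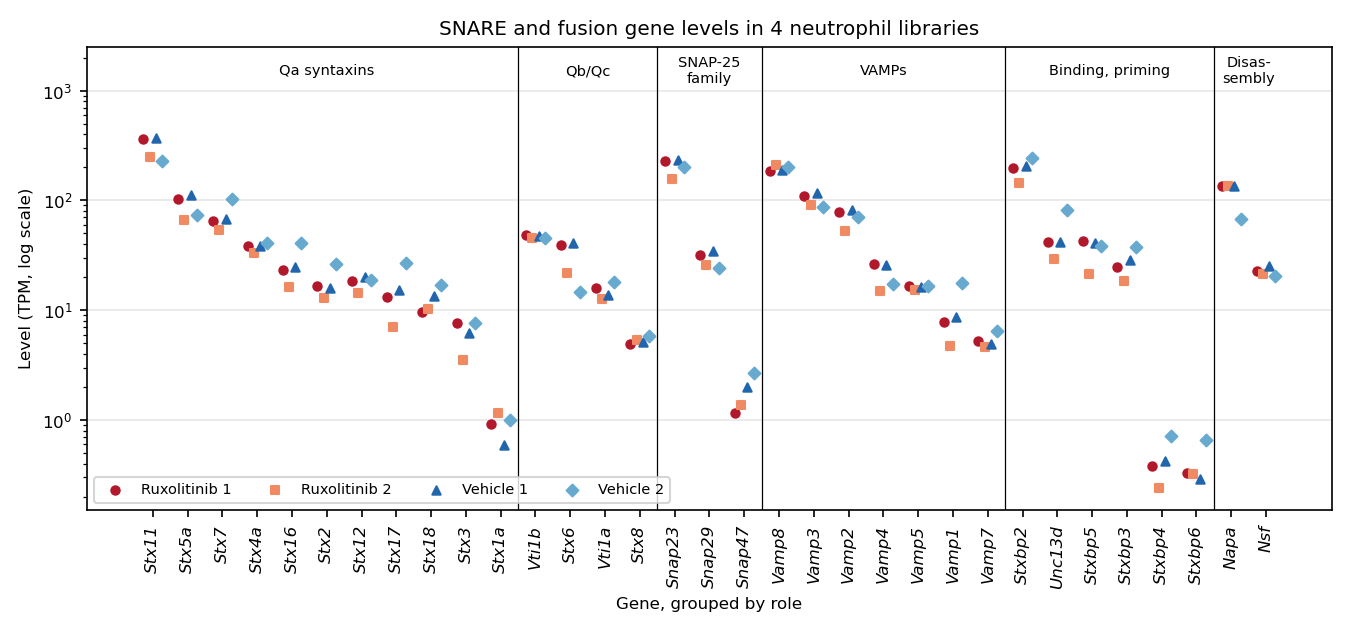
Deposited TPM (log scale) of 33 of the 34 tested SNARE and fusion genes by role, 1 point per library, ruxolitinib left of vehicle. By the mean over the libraries Stx11, Snap23, Stxbp2, Vamp8 and Napa lie highest. In vehicle replicate 2, though, Napa (67.7 TPM) lies below other genes such as Stx7 (103 TPM). Stxbp4 and Stxbp6 lie lowest, below 1 TPM in every library.

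Among the Qa syntaxins, the membrane-anchored partners that define the target compartment, 11 of 13 genes were tested and 0 passed, with 4 fitted log2 fold changes above 0 and 7 below. Their median log2 fold change was -0.11, against -0.0050 over all genes. Stx17, which mediates fusion of autophagosomes with lysosomes (chromosome 4, 48124906 to 48186507, GRCm38.p6), was at 43.2 and 28.5 CPM with ruxolitinib, against 49.3 and 87.1 CPM with vehicle. Both ruxolitinib libraries lay below both vehicle libraries, and vehicle replicate 2 was far above the rest. The log2 fold change was -0.93 ± 0.35 (SE, n = 2 each; 95% interval -1.70 to -0.16), with an adjusted p of 0.975 by edgeR. Stx16, which returns vesicles from endosomes to the trans-Golgi network (chromosome 2, 174076260 to 174099771), was at 47.6 and 41.5 CPM with ruxolitinib, against 50.3 and 84.0 CPM with vehicle. Here too vehicle replicate 2 alone was high, and the log2 fold change was -0.59 ± 0.32. Stx18, of the endoplasmic reticulum, was at 11.7 and 13.1 CPM with ruxolitinib, against 15.4 and 20.1 CPM with vehicle, without overlap of the groups, at a log2 fold change of -0.52 ± 0.31. Stx18 shares exon bases on the opposite strand with Nsg1, and the counting is not stated to use strand, so its counts are uncertain. Stx18, Stxbp2, Stxbp4 and Vti1b also had fractional estimated counts and are uncertain for that reason as well.

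Of the syntaxins tied to the plasma membrane, granules and endosomes, none had an interval that left out 0. Stx11 was at 454 and 381 CPM with ruxolitinib, against 466 and 284 CPM with vehicle, lowest in vehicle replicate 2, with overlapping groups and a log2 fold change of 0.16 ± 0.31 (95% interval -0.53 to 0.84). Stx4a, the general plasma membrane syntaxin, was at 34.2 and 39.1 CPM with ruxolitinib, against 34.0 and 35.4 CPM with vehicle, nearly level in all libraries, with an interval of -0.53 to 0.69 for the log2 fold change. Stx3, a syntaxin of apical and granule membranes, was at 16.1 and 9.56 CPM with ruxolitinib, against 13.3 and 14.3 CPM with vehicle, lowest in ruxolitinib replicate 2, with a log2 fold change of -0.11 ± 0.34. Stx2, another plasma membrane syntaxin, was at 26.5 and 25.7 CPM with ruxolitinib, against 24.6 and 42.3 CPM with vehicle, highest in vehicle replicate 2. Stx7, of late endosomes, was at 77.5 and 80.0 CPM with ruxolitinib, against 80.5 and 123 CPM with vehicle, again highest in vehicle replicate 2, with a log2 fold change of -0.37 ± 0.30. Stx5a, of the route from endoplasmic reticulum to Golgi, was at 106 and 86.4 CPM with ruxolitinib, against 115 and 77.3 CPM with vehicle, lower in both second replicates. Stx12, of recycling endosomes, was at 23.2 and 22.7 CPM with ruxolitinib, against 24.96 and 23.9 CPM with vehicle, apart by a small margin. Stx1a had 17 and 24 counts with ruxolitinib, against 12 and 19 counts with vehicle, so its log2 fold change of 0.53 ± 0.55 is poorly determined.

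The 4 other Q-SNAREs of endosomes and Golgi held 0 calls and a median log2 fold change of 0.18. Stx6, of the trans-Golgi network and endosomes (chromosome 1, 155158628 to 155207567), was at 53.5 and 37.6 CPM with ruxolitinib, against 55.3 and 20.1 CPM with vehicle. Vehicle replicate 2 held well under the level of the other libraries, the groups overlapped, and the log2 fold change was 0.27 ± 0.42. Vti1b, of late endosomes, was at 30.6 and 35.4 CPM with ruxolitinib, against 30.2 and 28.1 CPM with vehicle, with both ruxolitinib libraries above both vehicle libraries at a log2 fold change of 0.18 ± 0.28, and it shares exon bases on the opposite strand with Arg2. Vti1a, of the Golgi, was at 32.4 and 33.1 CPM with ruxolitinib, against 30.5 and 39.3 CPM with vehicle, with overlapping groups. Stx8, an endosomal partner of Vti1b, was at 9.43 and 14.1 CPM with ruxolitinib, against 9.72 and 11.1 CPM with vehicle, highest in ruxolitinib replicate 2. In the SNAP-25 family, 3 of 4 genes were tested and 0 passed. Snap23 was at 289 and 248 CPM with ruxolitinib, against 293 and 254 CPM with vehicle, with both second replicates below both first replicates and a log2 fold change of -0.027 ± 0.28 (95% interval -0.63 to 0.58). Snap29, which joins Stx17 and Vamp8 in the autophagosome complex, was at 60.0 and 60.9 CPM with ruxolitinib, against 65.4 and 46.4 CPM with vehicle, lowest in vehicle replicate 2, and it shares exon bases with Pi4ka on the opposite strand. Snap47 had 17 and 23 counts with ruxolitinib, against 31 and 40 counts with vehicle, a log2 fold change of -0.70 ± 0.49, and overlaps Jmjd4 on the opposite strand.

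Of the 8 VAMP genes, which encode the vesicle-side SNAREs, 7 were tested and 0 passed, with a median log2 fold change of 0.074. Vamp1, or synaptobrevin 1 (chromosome 6, 125215581 to 125222306), was at 13.6 and 10.1 CPM with ruxolitinib, against 14.9 and 30.8 CPM with vehicle. The groups did not overlap, and vehicle replicate 2 was far above the other libraries. Its log2 fold change was -0.95 ± 0.38 (95% interval -1.79 to -0.11), the lowest of the set, at an adjusted p of 0.975 by edgeR. Vamp2, a vesicle SNARE of regulated secretion, was at 91.3 and 77.1 CPM with ruxolitinib, against 95.1 and 82.8 CPM with vehicle, with a log2 fold change of -0.079 ± 0.28. Vamp8 (chromosome 6, 72385221 to 72390667) was at 70.8 and 99.9 CPM with ruxolitinib, against 71.8 and 75.4 CPM with vehicle, so that ruxolitinib replicate 2 stood above 3 closely matched libraries, with a log2 fold change of 0.21 ± 0.29 (95% interval -0.42 to 0.85). Removal of the gene length trend turned this value to -0.017. Vamp3 was at 125 and 128 CPM with ruxolitinib, against 133 and 99.9 CPM with vehicle, lowest in vehicle replicate 2, with a log2 fold change of 0.13 ± 0.28. Vamp4, of the trans-Golgi network, was at 74.7 and 53.2 CPM with ruxolitinib, against 72.0 and 49.6 CPM with vehicle, lower in both second replicates than in both first replicates. Vamp7, of lysosomes, was at 7.37 and 8.09 CPM with ruxolitinib, against 6.92 and 9.001 CPM with vehicle, with overlapping groups and a log2 fold change of -0.042 ± 0.34. Vamp5, best known from muscle, lay between 14.2 and 16.5 CPM in all 4 libraries.

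The 7 syntaxin-binding and priming genes were all tested and 0 passed, with 6 fitted values below 0 and a median log2 fold change of -0.37. Unc13d, which encodes the granule priming factor Munc13-4 (chromosome 11, 116062095 to 116078495), was at 94.4 and 82.0 CPM with ruxolitinib, against 93.2 and 181 CPM with vehicle. Vehicle replicate 1 lay between the ruxolitinib libraries, and only vehicle replicate 2 was high. The log2 fold change was -0.64 ± 0.34 (95% interval -1.38 to 0.11). Stxbp2 was at 254 and 230.1 CPM with ruxolitinib, against 259 and 300.4 CPM with vehicle, with the groups apart by a narrow margin and a log2 fold change of -0.21 ± 0.27. Stxbp3, or Munc18-3, the partner of syntaxin 4, was at 32.3 and 30.4 CPM with ruxolitinib, against 37.0 and 49.0 CPM with vehicle, also without overlap, at -0.46 ± 0.29. Stxbp5, or tomosyn, which holds back SNARE assembly, was at 169 and 109.8 CPM with ruxolitinib, against 162 and 149 CPM with vehicle, lowest in ruxolitinib replicate 2. Stxbp4 and Stxbp6, binders of syntaxin and SNARE complexes, stayed between 0.699 and 2.48 CPM.

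For disassembly, Napa, which encodes α-SNAP (chromosome 7, 16098202 to 16117982), was at 168 and 209.9 CPM with ruxolitinib, against 166 and 83.7 CPM with vehicle. The level in vehicle replicate 2 was 0.504 times that in vehicle replicate 1, and the other libraries lay well above it. The groups did not overlap, and the log2 fold change of 0.60 ± 0.35 (95% interval -0.17 to 1.36) was the highest of the set. Nsf, its ATPase partner, was at 47.9 and 56.0 CPM with ruxolitinib, against 53.0 and 42.5 CPM with vehicle, with overlapping groups and a log2 fold change of 0.12 ± 0.28.

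**Figure D2:**
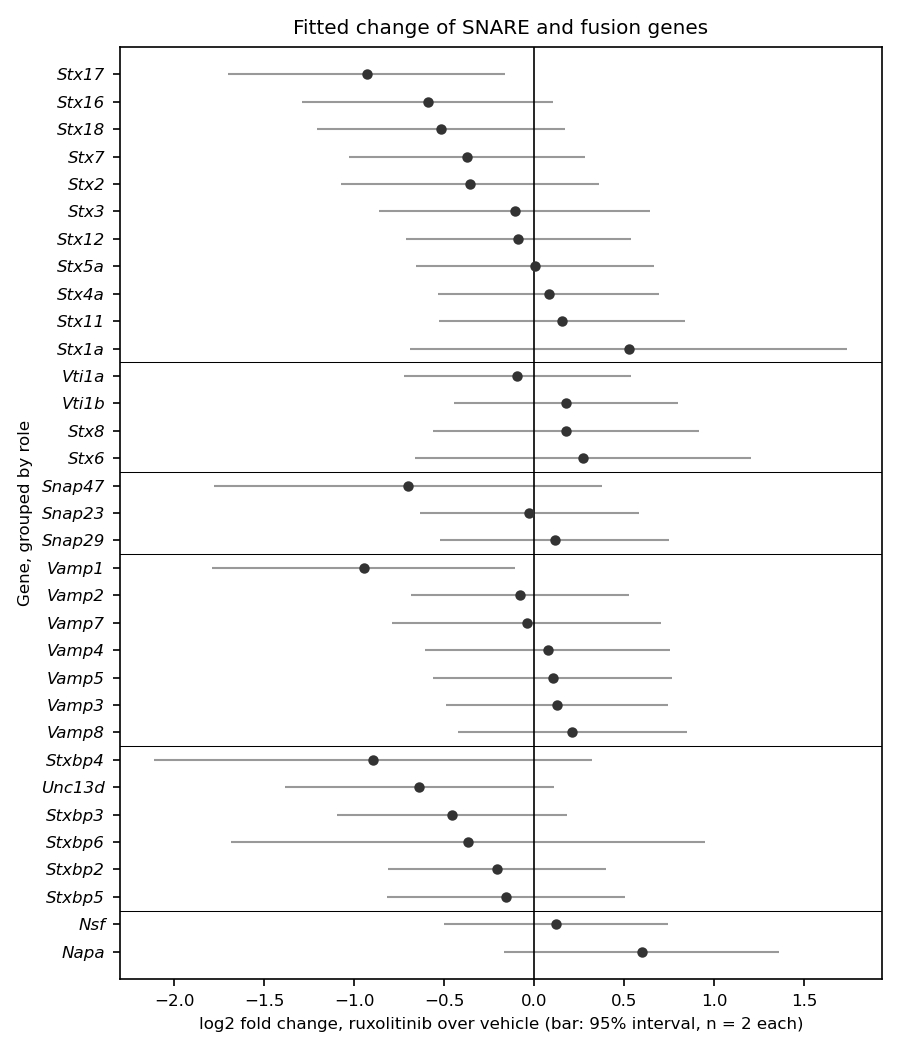
Fitted log2 fold change, ruxolitinib over vehicle, of 33 of the 34 tested genes with its 95% interval (edgeR quasi-likelihood fit, 2 libraries each), grouped by role. The intervals of Stx17 and Vamp1 lie below 0 and those of the other 31 genes plotted include 0.

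Over the 34 tested genes the median log2 fold change was -0.061, with 19 values below 0 and 15 above, in a range of -0.95 to 0.60. Over all genes tested it was -0.0050, with 50.6% below 0. The groups did not overlap for 12 of 34 genes, where 27.3% of all genes did not. Of these, 2 (Napa and Vti1b) were higher with ruxolitinib, against 14.5% of all genes, and 10 (Snap47, Stx7, Stx12, Stx16, Stx17, Stx18, Stxbp2, Stxbp3, Stxbp4 and Vamp1) were lower, against 12.8%. The share that was lower exceeded that of all genes and the share that was higher fell short of it, and neither difference was tested. Ruxolitinib replicate 1 and vehicle replicate 1 differed by 0.5 or less (log2) for 9 of the 10 lower genes, all but Snap47. The half-width of the 95% interval was 0.68 on the log2 scale at the median, from 0.60 to 1.32, so for 15 genes a 2-fold difference lay inside the interval. An exact permutation test of a single gene with 2 libraries against 2 has a smallest two-sided p of 0.3333, so none was run.

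The first replicates of the treatments were nearly the same for these genes. For ruxolitinib replicate 1 against vehicle replicate 1, the absolute log2 difference had a median of 0.081, against 0.098 over all genes. It exceeded 0.5 for 2 of the 34 genes, Snap47 (-0.80) and Stx1a (0.57), both of low count, and for 6.14% of all genes. For ruxolitinib replicate 2 against vehicle replicate 2 the median was 0.42, against 0.495 over all genes. There the difference exceeded 0.5 for 15 of the 34 genes and for 49.4% of all genes. Within a treatment the median of the set was 0.41 for vehicle replicate 2 against vehicle replicate 1 and, for ruxolitinib replicate 2 against ruxolitinib replicate 1, 0.23. Over all genes those values were 0.41 and 0.27. The set therefore spread between libraries about as all genes did. Vehicle replicate 2 held the highest value of the 4 libraries for 14 of 34 genes and the lowest for 10, where it did so for 38.5% and 38.6% of all genes. The second replicates did not depart alike: across the 34 genes the difference between the vehicle libraries and that between the ruxolitinib libraries had Pearson's r of 0.13 and Spearman's rho of 0.12. These are values across genes, which are not independent and share each library's depth and scaling.

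**Figure D3:**
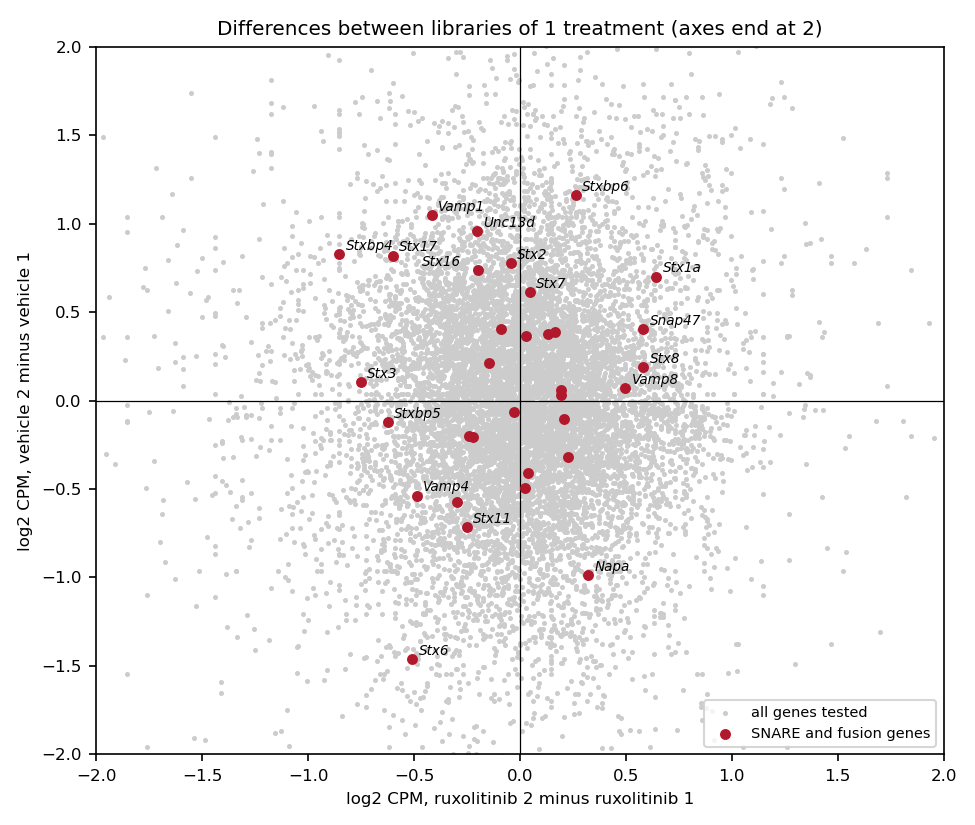
Log2 CPM differences within a treatment, ruxolitinib replicate 2 minus 1 (x axis) and vehicle replicate 2 minus 1 (y axis), for 33 SNARE and fusion genes (red) over 11591 genes tested with counts in every library (grey), of which 256 lie beyond the axis ends of 2. Vamp1 at 1.05, Unc13d at 0.96, Napa at -0.99 and Stx6 at -1.46 lie far from 0 on the vehicle axis.

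**Figure D4:**
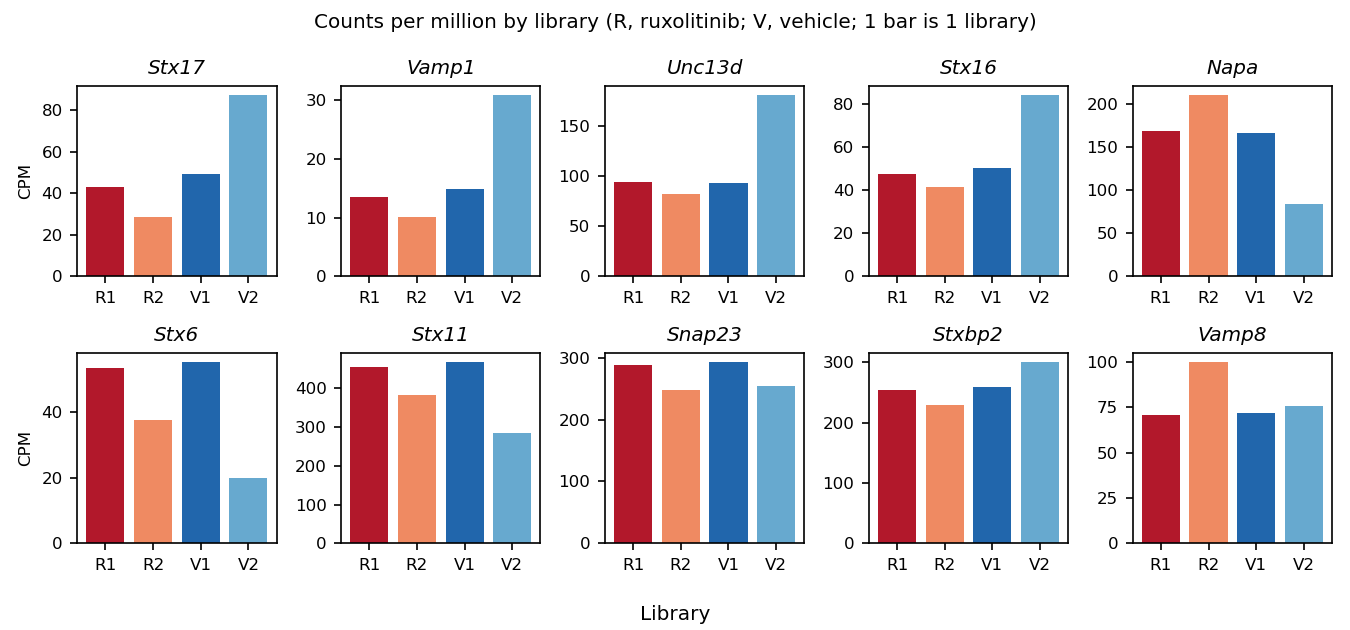
CPM per library of 10 genes, ruxolitinib replicates (R1, R2) left of vehicle replicates (V1, V2), each axis from 0. Vehicle replicate 2 is highest for Stx17, Vamp1, Unc13d and Stx16 and lowest for Napa, Stx6 and Stx11.

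Among the alternatives run, calls appeared in the set only without vehicle replicate 1. Without vehicle replicate 1, a fit that takes the spread of the single vehicle library from the ruxolitinib pair, 2 genes were higher with ruxolitinib, Napa and Stx6, and 4 were lower, Stx16, Stx17, Unc13d and Vamp1. All genes were called at 7.13% higher and 6.62% lower in that fit, so 17.6% of the set stood beside 13.7% of all genes. The log2 fold change of Stx17 was then -1.27 (edgeR adjusted p = 0.000546), that of Vamp1 -1.37 (adjusted p = 0.000795) and that of Unc13d -1.03 (adjusted p = 0.00726). Stx16 was at -0.90 (adjusted p = 0.0137), Napa at 1.19 (adjusted p = 0.00547) and Stx6 at 1.19 (adjusted p = 0.00384). Over the fits that left out another library, the adjusted p of these 6 genes by edgeR was 0.9999 or more, and with all libraries it was 0.975 or more. Without vehicle replicate 2, 0 of the set and 0.0169% of all genes (0.00846% higher and 0.00846% lower) were called, and the same genes had log2 fold changes of -0.47 (Stx17), -0.34 (Vamp1), -0.089 (Unc13d), -0.18 (Stx16), 0.18 (Napa) and -0.29 (Stx6), so that Stx6 changed sign. The fit without ruxolitinib replicate 1 called 0 of the set and 0.0833% of all genes (0.0333% higher and 0.05% lower). The fit without ruxolitinib replicate 2 called 0 of the set and 0.0499% of all genes (0.00832% higher and 0.0416% lower). Vehicle replicate 2 was also the highest library for 9 of 17 eosinophil, basophil and mast cell markers and the lowest for 3. It was the highest for 6 of 12 neutrophil markers, including Cxcr2 and Csf3r. For the 14 monocyte and macrophage markers it was the highest for 11 and the lowest for 2. Ruxolitinib replicate 2 was the highest for 5 other neutrophil markers and for the summed erythroid and B lineage markers. The part of these in the calls was not tested.

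**Figure D5:**
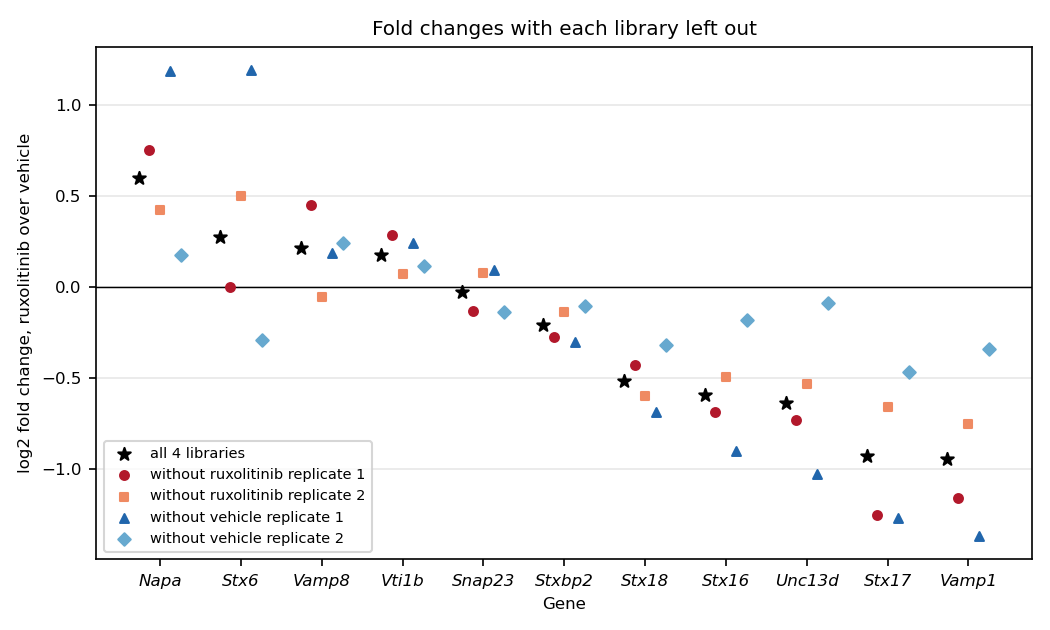
Log2 fold change, ruxolitinib over vehicle, of 11 genes in the fit of all 4 libraries (stars) and with each library left out. The values without vehicle replicate 1 lie farthest from 0 for Napa, Stx6, Stx16, Unc13d, Stx17 and Vamp1, and those without vehicle replicate 2 lie nearest to 0 for Napa, Stx16, Unc13d, Stx17 and Vamp1.

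Other genes of the fusion pathway held 0 calls. Of the 12 other SNAREs and SNAP adaptors, 11 were tested, with a median log2 fold change of 0.19. Bet1l, a Golgi SNARE, was at 20.6 and 29.6 CPM with ruxolitinib, against 21.7 and 15.5 CPM with vehicle, lowest in vehicle replicate 2. Gosr2, another Golgi SNARE, was at 117 and 130.3 CPM with ruxolitinib, against 115 and 75.9 CPM with vehicle, lowest in the same library. Sec22a had 2.92 and 1.84 CPM with ruxolitinib, against 4.51 and 2.22 CPM with vehicle. Of the 20 Sec1/Munc18 proteins and tethers, all were tested and the median was -0.15. Exoc6, a subunit of the exocyst that tethers vesicles to the plasma membrane, was at 48.5 and 48.8 CPM with ruxolitinib, against 45.0 and 115 CPM with vehicle. Exoc3, another subunit, was at 38.7 and 33.3 CPM with ruxolitinib, against 41.2 and 62.1 CPM with vehicle. In both, vehicle replicate 2 was highest. Vps18, a subunit of the lysosomal tethers, was at 95.3 and 113 CPM with ruxolitinib, against 87.2 and 66.1 CPM with vehicle, with vehicle replicate 2 lowest.

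Of the 42 calcium sensors and granule docking genes listed, 35 were in the data and 15 were tested, with a median log2 fold change of 0.043. Rab27a, the GTPase that recruits Munc13-4 to granules, was at 136 and 138 CPM with ruxolitinib, against 130.4 and 268 CPM with vehicle, a log2 fold change of -0.54 ± 0.35. The ruxolitinib libraries were level with vehicle replicate 1, and vehicle replicate 2 was high, as it was for Unc13d. Rab3d, another secretory GTPase, was at 159 and 155 CPM with ruxolitinib, against 145 and 256 CPM with vehicle, with the same library highest. Baiap3, a Munc13 relative, was at 7.84 and 5.15 CPM with ruxolitinib, against 6.92 and 10.2 CPM with vehicle.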

How the data were processed

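Per the labels' protocols, Trizol was used for RNA and a standard Illumina workflow for libraries. Bowtie2, RSEM and DESeq2 and the build GRCm38.p6 are named in the submitters' processing notes, with no version and no annotation. Per the file headers, the authors deposited per gene an estimated count (read_count, not normalized; 91.0% to 91.1% whole within 1e-06), a TPM and an FPKM. TPM, scaled by the authors to length and library, was used for levels between genes; FPKM, deposited by the authors, only for effective length and order.

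Estimated counts were rounded. With R 4.3.3 and edgeR 4.0.16, genes were kept by filterByExpr (count of about 10, 15 in total), scaled by TMM and compared by the quasi-likelihood test in a model of treatment alone, with Benjamini-Hochberg adjustment over 11611 genes. The common BCV was 25.7%. SE was the log2 fold change divided by the square root of F. Alternatives were RLE scaling, DESeq2 1.42.0, limma-voom (limma 3.58.1), filters of 1 count in any library or 50 in 2, each library left out, a replicate block, limma on log2(TPM + 1) or log2(TPM + 0.1), and removal of a gene length trend. Treatment came from the treatment label and replicate numbers from accession order, which matches the titles. The edgeR fit with and without the length step, DESeq2 and limma-voom were tested on simulated data of 4 libraries. The fits with a library left out, with the replicate block and on TPM were not. Exon overlaps came from GENCODE M21 (GRCm38) and coordinates, counted from 1, from RefSeq GRCm38.p6.

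The genes and lists were chosen with earlier results of these data known. Values of 2 genes of the set are not reported here, and every other gene is named; fold changes are given for a list of granule fusion genes and the 5 smallest p-values in each direction, and for a few more chosen after their values were seen. Of each related list the 3 smallest p-values were named.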

Additional observations from a re-analysis of the deposited data

How the results depend on the processing

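The count of 0 SNARE and fusion genes called held under RLE scaling, DESeq2, limma-voom, both other filters, the replicate block, log2(TPM + 1) and removal of the length trend. With each library left out it ranged over 0 to 6, and the count over all genes over 2 to 1645. Genes without overlap of the groups, 12 of the set with all libraries, ranged over 18 to 26 with 3 libraries, where fewer values make separation easier. Over all genes the share was 27.3% with all libraries and ranged over 50.9% to 81.4% with 3. Without vehicle replicate 1, 25 of the 34 stood beside 81.4% of all genes. Without vehicle replicate 2, 26 of the 34 stood beside 56.6%. The median of the set ranged over -0.16 to -0.0051, and it was -0.033 with the filter of 1 count and -0.15 on log2(TPM + 1). The TPM scale moved the median of all genes to -0.13. On that scale the other SNAREs, the tethers and the docking genes had medians of 0.030, -0.28 and -0.12. With 1 library left out those medians ranged over -0.00036 to 0.30, -0.24 to -0.045 and -0.099 to 0.082, and their calls over 0 to 0, 0 to 4 and 0 to 2. On log2(TPM + 1) and log2(TPM + 0.1), the log2 fold change turned negative for 8 of the 33 reported genes, Stx4a (-0.14 and -0.15), Vamp3 (-0.022 and -0.022), Nsf (-0.034 and -0.035), Snap29, Stx5a, Stx8, Vamp4 and Vamp5. With the length trend removed, Vamp8 was at -0.017 and Stx5a at -0.022, and with the filter of 50 counts Stx5a was at -0.013. With 1 library left out, signs changed for 18 of the 33 reported genes, 10 of them among those named by the rule: Stx3 (-0.52 to 0.22), Stx4a (-0.020 to 0.18), Stx6 (-0.29 to 1.19), Stx11 (-0.17 to 0.57), Snap23 (-0.14 to 0.091), Vamp2 (-0.20 to 0.037), Vamp3 (-0.074 to 0.36), Vamp7 (-0.21 to 0.15), Vamp8 (-0.057 to 0.45) and Nsf (-0.037 to 0.30). The others were Snap29, Stx2, Stx5a, Stx8, Stxbp5, Stxbp6, Vamp4 and Vti1a. None of these was called with all libraries, and the cause was not tested.

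The labels do not say that the replicate numbers pair the libraries. Deviations of same-numbered libraries from their group means had a correlation of 0.042 across genes, which with 2 libraries a group does not show whether the closely matched first replicates shared a preparation. With the replicate block, 0 of the set and 16 of all genes were called. Of the 10 genes of highest mean TPM, 9 were among the 10 highest by mean log2(TPM + 1) and 10 by FPKM. Snap25, Stx19 and Vamp9 did not pass the filter on low counts and stayed untested.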

Other observations

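Gene length moved with the difference between the ruxolitinib libraries. Over the 34 tested genes, the log2 difference of ruxolitinib replicate 2 from ruxolitinib replicate 1 had a Spearman's rho of -0.53 with effective length, and over all genes one of -0.32. For vehicle replicate 2 against vehicle replicate 1 the values were 0.24 and 0.13. These are descriptions across genes of single library pairs. The short transcript of Vamp8 and the long ones of Stxbp5 and Stx17 lay at 0.50, -0.62 and -0.60 between the ruxolitinib libraries. With the length trend removed, the log2 fold change of ruxolitinib over vehicle was -0.017 for Vamp8, against 0.21 without that step, and 0.066 for Vti1b, against 0.18.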
